A study of Mus musculus with 3 samples.

Results

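Embryoid bodies (EBs) of the wild-type mouse ES cell line E14K were compared on day 4 and day 3 of differentiation, both without ceramide, to describe 1 day of differentiation in vehicle. Genes were kept where at least 10 estimated counts fell on them in 1 or both of these libraries, which left 17118 of the 55487 genes of the deposited table. Drops of 25 μl seeded with 3000 cells each hung for 2 days in LIF-free medium with 15% bovine calf serum, and the EBs then floated in a bacterial Petri dish. The labels call both groups control, and the headers of the value columns name the DMSO vehicle, given from the start of day 3. Whether the day 3 EBs had it before harvest, and for how long, is not given in the sources used here. Each day was 1 library of the 3 in the study, so every difference is an effect size between a pair of libraries, with no replicate check and no test. Intervals are exact conditional (Clopper-Pearson) 95% intervals of the count ratio. They cover counting error alone, treat PCR copies as separate molecules and leave out the spread between cultures.

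An EB is a floating ball of ES cells that passes through a state resembling the epiblast, the embryonic layer from which the body is made. In the embryo, Wnt, Nodal, BMP and FGF signals at one side of the epiblast induce the primitive streak (PrS), where cells leave the epithelium and become mesoderm or definitive endoderm. Epiblast cells that do not pass through the streak make neural plate and epidermis. T (Brachyury), Eomes and Mixl1 are transcription factors of streak cells, Mesp1 marks the first cardiac mesoderm, and Sox17 and Foxa2 mark endoderm.

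A gene was called higher on day 4 where its ratio of TPM, the share of all transcripts after scaling by length, exceeded 2 and lower where the ratio was under 0.5. By this rule 2110 genes (12.3%) were higher, 1521 (8.89%) were lower and 13487 (78.8%) lay within 2-fold, and the median log2 ratio was 0.05. The libraries held 33619197 and 35078820 estimated counts, and 13456 and 13683 genes reached 1 TPM on day 3 and day 4. The correlation of log2(TPM + 1) across the 17118 genes was 0.976, a description over genes that share both libraries. The higher genes took 0.518% of all TPM on day 3 and 1.90% on day 4, and the lower genes took 1.10% and 0.421%. Of the higher genes, 356 had no count on day 3, and of the lower genes 209 had no count on day 4. With such genes placed at 3 counts, 953 genes were more than 4-fold higher and 509 more than 4-fold lower, and beyond 16-fold the numbers were 185 and 50. More genes lay far above equality than far below it. The whole counting interval lay past 2-fold for 870 higher and 450 lower genes.

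**Figure D1:**
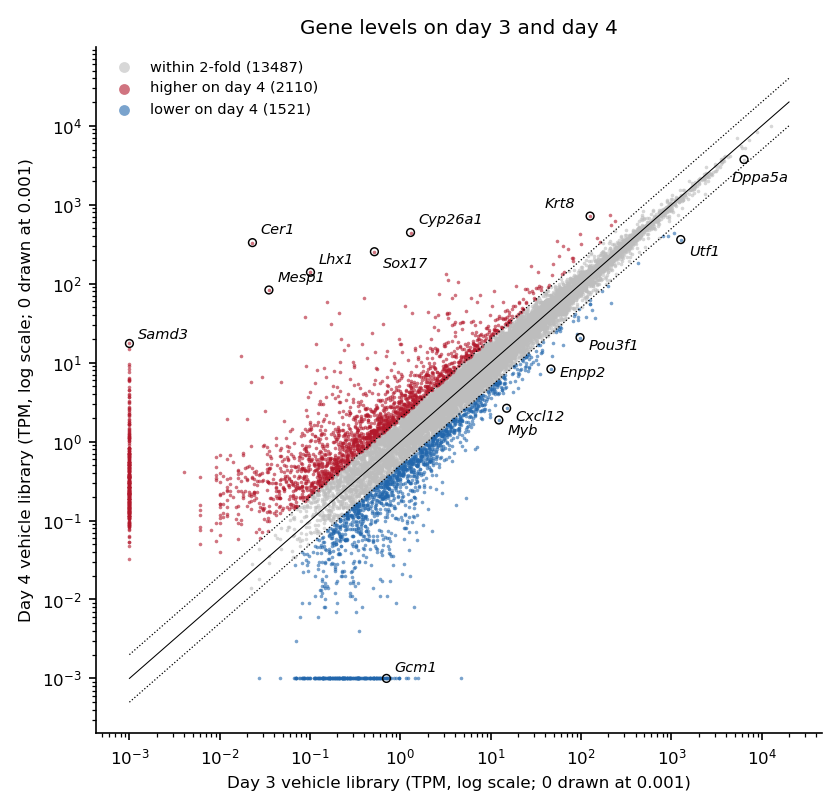
Level of each of the 17118 genes in the day 3 library (x axis) and the day 4 library (y axis), both in TPM on log scales, with 0 drawn at 0.001. Each point is a gene, coloured by its call, the solid line marks equal levels and the dotted lines mark 2-fold. Cer1, Mesp1, Lhx1, Sox17 and Cyp26a1 lie far above the lines from day 3 levels of at most 1.29 TPM, and the most abundant genes lie close to the line of equal levels.

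Gene lists drawn from textbook knowledge were set against these background shares, and each is given by its members in use. The lists were chosen with earlier results of these data known, so a high share is a description and no independent check. Members that came into use only through their day 4 counts lean higher by the filter itself. Those in use only through their day 3 counts lean lower. No share over members in use therefore stands for a whole list. Medians are given in log2 units, and a second value, with genes at 0 counts in 1 library placed at 3 counts there, is added where it differs. In bulk RNA, more cells of a type and more RNA per cell of that type cannot be told apart, and this holds for every level below.

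**Figure D2:**
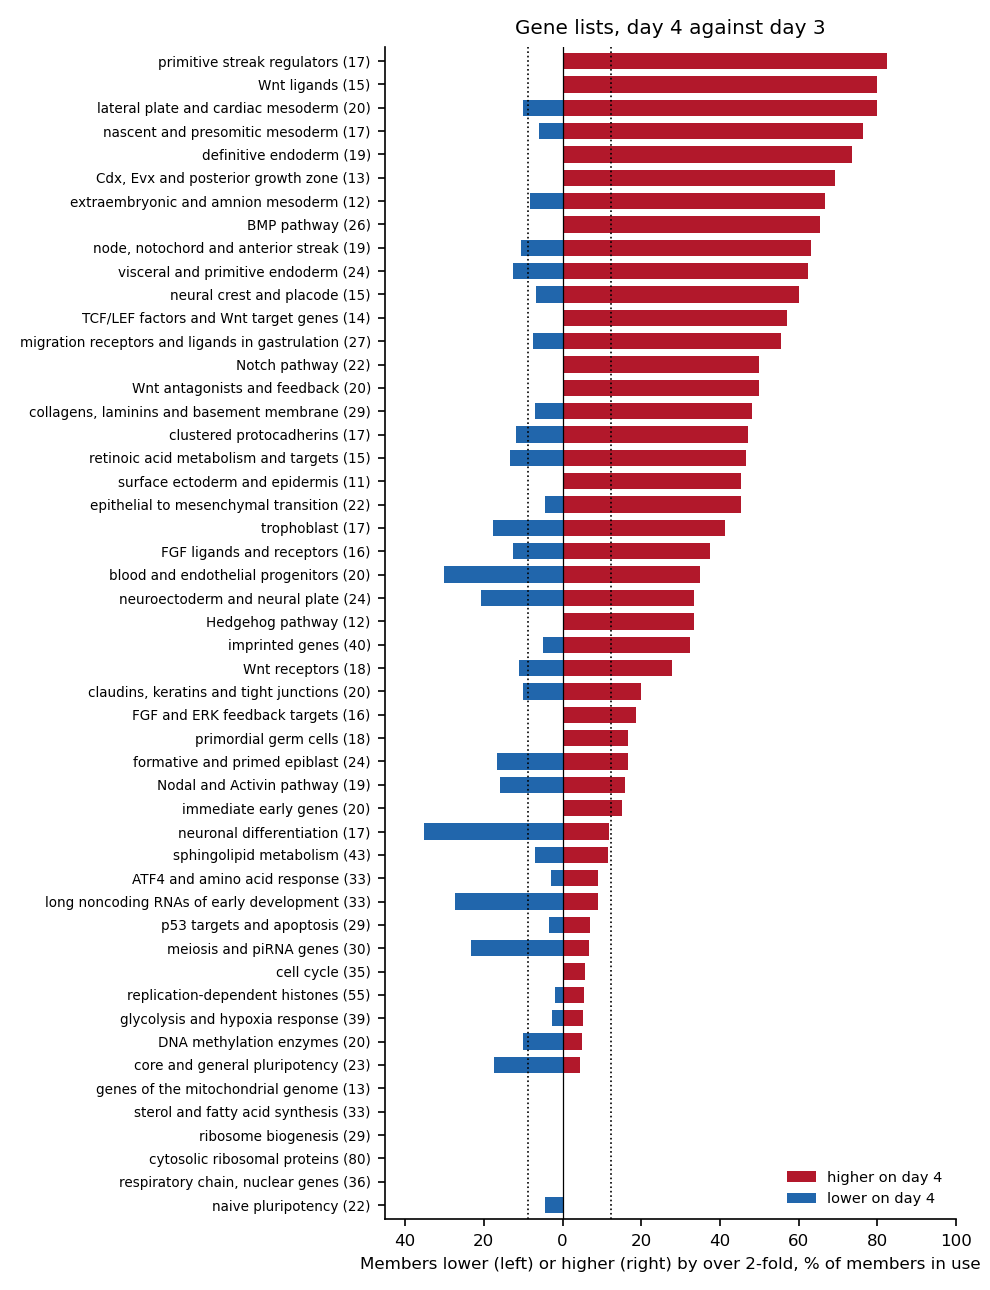
Share of the members of each gene list that were more than 2-fold lower (left, blue) or higher (right, red) on day 4, as % of members in use (number in parentheses), for lists with at least 10 members in use. Dotted lines mark 8.89% lower and 12.3% higher over all genes in use. Streak, mesoderm, endoderm and Wnt ligand lists stand at the top, and ribosomal, respiratory chain, sterol and naive pluripotency genes hold no higher member.

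Streak regulators were higher on day 4 in 14 of the 17 members in use, with none lower and a median log2 ratio of 2.70, and Foxd4 was under the filter. Mixl1, a homeobox gene of streak cells, stood at 3.19 TPM on day 3 and 134 TPM on day 4, a difference of 42.1-fold (95% counting interval 36.3 to 49.1). Sp5, a zinc finger factor switched on by Wnt signalling, stood at 4.29 and 105 TPM. Evx1, a homeobox gene of the posterior streak, went from 16 to 3268 counts, or 0.208 and 42.5 TPM. Gsc, which marks the anterior streak and organizer, was at 3.69 and 66.1 TPM. Eomes, a T-box factor needed for endoderm and mesoderm, was already at 25.2 TPM on day 3 and reached 84.7 TPM, 3.37-fold (95% counting interval 3.21 to 3.53). Fgf8, the ligand that streak cells need to move away, was at 54.0 and 351 TPM. The 3 members within 2-fold were ones that the epiblast carries before the streak: Nodal at 53.041 and 45.3 TPM, Fgf4 at 49.2 and 31.3 TPM and Zic2 at 7.11 and 6.23 TPM.

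Definitive endoderm genes were higher in 14 of 19 members in use, none was lower and the median log2 ratio was 3.40. Cer1, a secreted inhibitor of Nodal, BMP and Wnt made by anterior endoderm, had 1 count on day 3 and 14465 on day 4, or 0.023 and 331 TPM. Its ratio of 14386 carried a 95% counting interval of 2582 to 568238, since 1 count on day 3 fixes it poorly. Gata6, a zinc finger factor of endoderm and cardiac mesoderm, went from 0.087 to 37.7 TPM, and Gata4, its relative, from 3.25 to 42.5 TPM. Cxcr4, the chemokine receptor used to sort endoderm, was at 0.091 and 9.02 TPM. Hhex, a homeobox gene of anterior endoderm, was at 3.29 and 40.9 TPM, and Foxa2, a forkhead factor of endoderm and node, at 4.6 and 31.9 TPM. These genes were all low on day 3 and clearly present on day 4. Cldn6, an epithelial junction gene, differed little, at 262 and 309.9 TPM, and Trh, the thyrotropin-releasing hormone precursor, was the most abundant member on both days at 2626 and 2221 TPM.

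Among genes of the node, notochord and anterior streak, 12 of 19 members in use were higher and 2 lower, with a median log2 ratio of 2.79 (1.75 with genes at 0 placed at 3 counts). Lhx1, a LIM homeobox factor of the organizer and of intermediate mesoderm, was at 0.101 and 139 TPM with 11 and 10418 counts. Chrd and Nog, secreted BMP inhibitors of the node, were at 2.15 and 19.8 TPM and at 0.13 and 1.40 TPM. Foxj1, which switches on motile cilia, was at 1.44 and 14.5 TPM, and Cfap126, a gene of ciliary axonemes, at 0.217 and 4.34 TPM. Noto, a homeobox gene restricted to node and notochord, went from 0 to 28 counts, so it was present at only 0.686 TPM. The Nodal inhibitor Lefty1 was lower, at 127 and 54.8 TPM (log2 ratio -1.21, 95% counting interval -1.28 to -1.14), as was Gdf1, a Nodal co-ligand, at 6.10 and 2.43 TPM. Members of this list thus lay on both sides of equality.

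Nascent and presomitic mesoderm genes were higher in 13 of 17 members in use and lower in 1, and 4 more were under the filter (Hes7, Ripply2, Meox1 and Tbx18). Mesp1 had 1 count on day 3 and 2440 on day 4, or 0.035 and 83.1 TPM, and its paralogue Mesp2 stood at 0.483 and 23.4 TPM. Msgn1, the basic helix-loop-helix factor of presomitic mesoderm, went from 0 to 58 counts, at least 18.5-fold higher. Tbx6, which keeps mesoderm from a neural fate, was at 0.335 and 5.31 TPM. Foxc2, a forkhead factor of paraxial mesoderm, had 0 and 348 counts. The ordering of levels on day 4 put Mesp1 and Dll3 (81.4 TPM) far above Msgn1 (5.85 TPM), Tbx6 (5.31 TPM) and Foxc2 (4.96 TPM), whereas the later somite genes Uncx (0.251 TPM) and Pax3 (0.181 TPM) were near background on both days. Tcf15 (paraxis), known both from somites and from epiblast cells leaving pluripotency, was lower, at 132 and 46.2 TPM (log2 ratio -1.52, 95% counting interval -1.63 to -1.40).

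Lateral plate and cardiac mesoderm genes were higher in 16 of 20 members in use and lower in 2. Hand1, a basic helix-loop-helix factor of lateral and extraembryonic mesoderm, was at 0.149 and 6.61 TPM. Msx1 and Msx2, homeobox targets of BMP, were at 6.02 and 66.5 TPM and at 0.421 and 11.3 TPM. Pdgfra, the PDGF receptor of nascent mesoderm, was at 0.216 and 10.1 TPM, and Foxf1, a forkhead factor of lateral plate, went from 0 to 170 counts. Genes of the differentiating heart were present at low levels: Isl1 reached 4.32 TPM, Tbx20 0.609 TPM and Nkx2-5 0.736 TPM, while Hand2, Myocd, Gata5 and Tnnt2 were under the filter. Myl7, an atrial myosin light chain, was at 4.97 and 32.2 TPM on 45 and 301 counts. The 2 lower members were Wt1 (0.709 and 0.111 TPM) and Tbx5 (0.197 and 0.009 TPM).

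Blood and endothelial progenitor genes were on both sides, with 7 higher, 6 lower and 7 within 2-fold of 20 in use. The median log2 ratio was -0.15 in TPM and 0.15 in CPM (counts scaled by library total), so its sign depends on the scaling. Of the 10 members with at least 50 counts in 1 library, 5 were higher and 1 was lower. Kdr (Flk1), the VEGF receptor of the earliest blood and vessel progenitors, went from 3 to 2152 counts, or 0.017 and 12.1 TPM, and Flt1, the other VEGF receptor, was at 3.97 and 24.2 TPM. Etv2, the factor that acts after Kdr in that lineage, was at 6.83 and 15.0 TPM. Runx1, needed for definitive blood, was at 0.2 and 1.34 TPM. Cd34, a surface marker of blood progenitors and vessels, was lower at 2.14 and 0.562 TPM. Tal1, a factor of blood specification, was at 0.126 and 0.056 TPM on 10 and 6 counts. That was a lower call in TPM that lay within 2-fold in CPM. Pecam1, an endothelial adhesion protein, was at 7.53 and 4.66 TPM, within 2-fold, and Cdh5, Tie1, Erg, Fli1 and Gfi1b were under the filter. Embryonic globin Hbb-bh1 was at 2.73 and 2.46 TPM.

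**Figure D3:**
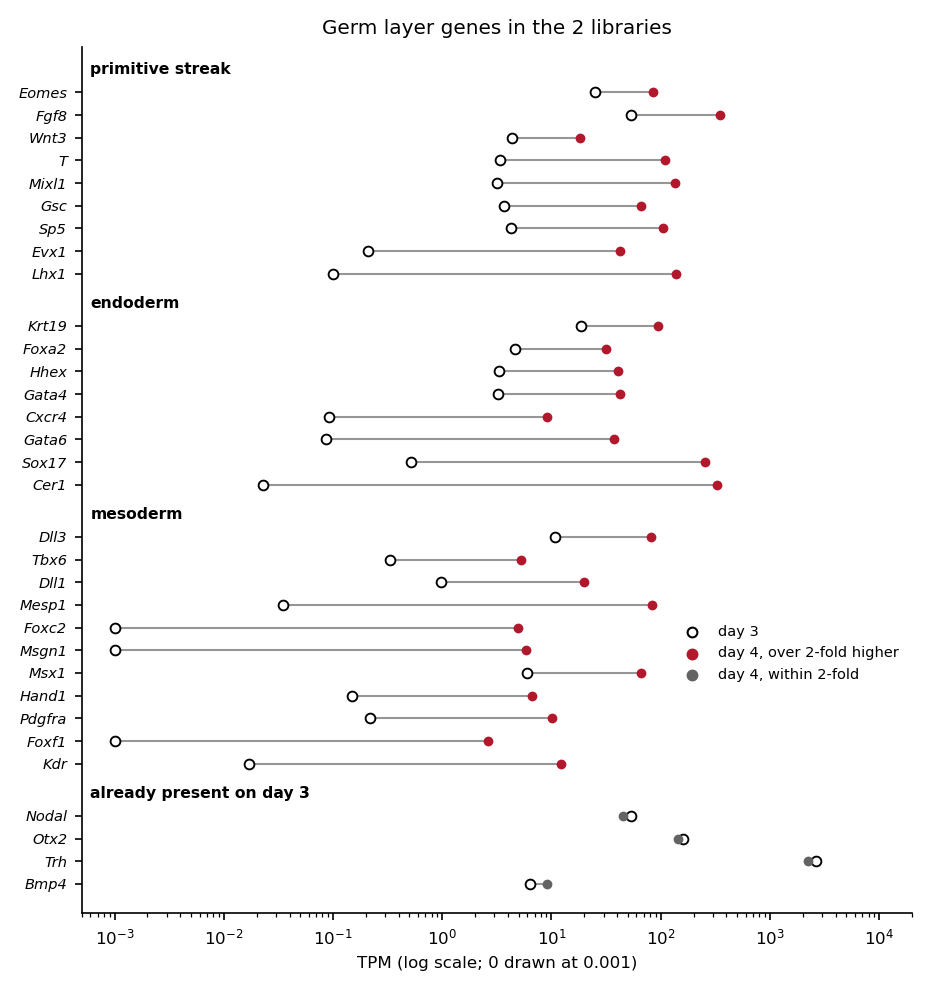
TPM (x axis, log scale, 0 drawn at 0.001) of streak, endoderm and mesoderm genes in the day 3 library (open circles) and the day 4 library (filled circles, red where over 2-fold higher and grey where within 2-fold). Nodal, Otx2, Trh and Bmp4 were present at near day 4 levels on day 3, whereas Cer1, Mesp1, Kdr, Foxc2, Msgn1 and Foxf1 started at or near 0.

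The starting sites of a few of these genes are shown as examples. T, Sp5 and Mesp1 carried a match to the Wnt effector motif, and Lhx1 and Cer1 carried none. Other higher genes (Msgn1, Wnt11, Dkk1 and Fgf3) carried a match, and so did lower genes (Cxcl12, Mkrn1, Nags and Pim2). The windows run from 250 bases before to 50 bases after the RefSeq start (build GRCm38.p6) and are printed 5′ to 3′ in the direction of the gene. Capitals mark matches on either strand to the TCF/LEF site CTTTGAT or its variant CTTTGAA, the T-box site GGTGTGA, the GATA site AGATAA, the forkhead site TGTTTAC, the octamer core TTTGCAT or the TATA box TATAAA, and no 2 of these motifs overlap here. T is at chr17:8434173-8434472 on the plus strand, Sp5 at chr2:70474673-70474972 on the plus strand, Mesp1 at chr7:79793541-79793840 on the minus strand, Lhx1 at chr11:84525485-84525784 on the minus strand and Cer1 at chr4:82885102-82885401 on the minus strand.
T: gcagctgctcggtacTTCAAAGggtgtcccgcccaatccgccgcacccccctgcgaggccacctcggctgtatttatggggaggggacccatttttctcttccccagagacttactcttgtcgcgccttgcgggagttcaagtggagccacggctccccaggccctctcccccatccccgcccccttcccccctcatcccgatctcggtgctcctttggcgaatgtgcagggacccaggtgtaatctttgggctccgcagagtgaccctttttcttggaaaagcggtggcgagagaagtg
Sp5: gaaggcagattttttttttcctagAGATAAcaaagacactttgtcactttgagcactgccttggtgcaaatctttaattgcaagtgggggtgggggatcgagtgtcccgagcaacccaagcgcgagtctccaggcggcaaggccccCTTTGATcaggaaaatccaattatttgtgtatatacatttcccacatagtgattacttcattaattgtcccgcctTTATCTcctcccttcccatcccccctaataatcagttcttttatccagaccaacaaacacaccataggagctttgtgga
Mesp1: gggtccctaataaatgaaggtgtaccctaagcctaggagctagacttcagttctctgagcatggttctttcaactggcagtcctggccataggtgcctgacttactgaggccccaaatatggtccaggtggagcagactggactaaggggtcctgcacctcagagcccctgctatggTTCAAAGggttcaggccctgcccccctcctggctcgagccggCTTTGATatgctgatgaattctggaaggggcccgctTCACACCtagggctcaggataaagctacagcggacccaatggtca
Lhx1: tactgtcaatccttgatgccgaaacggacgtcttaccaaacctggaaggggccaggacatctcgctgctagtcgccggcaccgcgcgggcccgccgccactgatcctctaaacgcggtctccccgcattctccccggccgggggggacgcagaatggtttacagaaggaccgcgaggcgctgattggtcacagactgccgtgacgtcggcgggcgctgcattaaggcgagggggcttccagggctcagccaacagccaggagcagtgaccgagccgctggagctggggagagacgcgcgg
Cer1: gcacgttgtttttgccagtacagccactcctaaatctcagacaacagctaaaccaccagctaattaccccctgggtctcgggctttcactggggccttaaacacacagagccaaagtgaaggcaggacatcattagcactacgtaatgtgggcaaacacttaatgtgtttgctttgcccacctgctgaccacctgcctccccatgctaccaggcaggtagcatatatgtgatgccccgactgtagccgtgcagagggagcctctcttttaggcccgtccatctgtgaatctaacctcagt
The T window held the variant TCF/LEF site 235 bases before the start, in the reverse direction. Sp5 held CTTTGAT from base -104 and 2 GATA matches. Mesp1 held the variant from base -73, CTTTGAT from base -31 and a reverse T-box site 5 bases after the start, and its RefSeq start lies 198 bases from the start that the gene table gives. Lhx1 and Cer1 held none of the 7 motifs, and their base composition lay far apart: the Lhx1 window had 31 CpG dinucleotides (observed over expected 0.961) and the Cer1 window 6 (0.308). Over all 11291 protein-coding promoters matched, CTTTGAT occurred in 2.50%, the variant in 3.41% and the T-box site in 3.42%. CTTTGAT was in 2.95% of the promoters of higher genes and 2.78% of those of lower genes. The variant was in 3.74% and 3.63%, so these sites were about as frequent in either direction. A match describes the letters and not a bound site.

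Genes of the posterior growth zone were higher in 9 of 13 members in use, with none lower. Cyp26a1, which degrades retinoic acid, was at 1.29 TPM on day 3 and 444 TPM on day 4 (58 and 19533 counts). Cdx2, a caudal homeobox factor, was at 0.945 and 7.68 TPM, Cdx1 at 0.929 and 2.00 TPM and Cdx4 at 0.277 and 0.334 TPM. Nkx1-2, a gene of the later bipotent progenitors of the tail bud, was at 2.08 and 2.01 TPM. The Hox genes were almost silent, because 32 of 39 were under the filter. Hoxb1, the first of its cluster to open, was at 0.31 and 5.17 TPM, and its neighbour Hoxb2 went from 0 to 139 counts. Hoxb13, at the other end of the cluster, was lower at 40 and 6 counts. Among other retinoic acid genes, Aldh1a2, which makes the ligand, was at 0.245 and 1.23 TPM, and the receptor Rarg was lower at 13.3 and 4.55 TPM, as was the carrier Crabp2 at 31.8 and 10.7 TPM (log2 ratio -1.57, 95% counting interval -1.80 to -1.34).

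In the Wnt pathway the ligands were higher in 12 of 15 members in use with none lower, and Wnt1, Wnt8b, Wnt10b and Wnt16 were under the filter. Wnt2 and Wnt2b had no count on day 3 and 193 and 52 on day 4. The ligands with the highest levels on day 4 were Wnt3 (4.34 and 18.4 TPM), Wnt11 (3.02 and 17.3 TPM), Wnt8a (10.6 and 13.2 TPM), Wnt5b (3.89 and 10.2 TPM) and Wnt5a (0.847 and 10.0 TPM), of which Wnt8a lay within 2-fold. Of the receptors 5 of 18 were higher, 2 lower and 11 within 2-fold. Fzd7, the most abundant frizzled receptor here, was at 47.7 and 67.4 TPM, and Lgr5, the R-spondin receptor that is itself a Wnt target, at 0.185 and 7.83 TPM. Antagonists and feedback genes were higher in 10 of 20 and lower in none. Dkk1, which blocks the LRP co-receptors, was at 0.17 and 30.9 TPM, and Frzb, a frizzled-related decoy, at 1.11 and 51.9 TPM. Of 14 TCF/LEF factors and Wnt target genes, 8 were higher and none lower, with a median log2 ratio of 1.22. The 8 were T, Sp5, Lgr5, Lef1, Axin2, Nkd1, Cdx1 and Tcf7l2. Among the effectors, Lef1 was at 15.9 and 40.0 TPM, whereas Tcf7l1 was at 58.7 and 50.8 TPM and Tcf7 at 94.2 and 89.8 TPM. Myc and Ccnd1, often listed as Wnt targets, were at 54.0 and 47.5 TPM and at 34.2 and 27.2 TPM, within 2-fold on the lower side.

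The BMP pathway was higher in 17 of 26 members, all in use, with none lower and a median log2 ratio of 1.80 (1.66 with genes at 0 placed at 3 counts). Among the ligands Bmp4 was at 6.38 and 9.05 TPM, Bmp7 at 2.34 and 27.9 TPM and Bmp5 at 0 and 69 counts. The receptors Bmpr1a (8.83 and 12.3 TPM) and Bmpr2 (0.27 and 0.294 TPM) lay within 2-fold. Of the target genes that read the pathway, Id1 was at 63.4 TPM on day 3 and 298 TPM on day 4, 4.70-fold (95% counting interval 4.42 to 5.01), and Id3 at 159.8 and 337 TPM, while Id2 and Id4 lay within 2-fold at 33.7 and 29.7 TPM and at 3.96 and 3.1 TPM. Smad6, an inhibitor induced by BMP, was at 1.97 and 7.61 TPM. In the Nodal pathway 3 of 19 members in use were higher, 3 lower and 13 within 2-fold. That is 15.8% each way, not far from the 12.3% higher and 8.89% lower over all genes in use. Its inhibitor Cer1, also on the definitive endoderm list, had the largest ratio. The Nodal co-receptor Tdgf1 (Cripto) was at 469 and 697 TPM and the related Cfc1 (Cryptic) at 1.33 and 42.2 TPM. The nuclear partner Foxh1 was at 108 and 183 TPM and the inhibitory Smad7 at 19.6 and 8.26 TPM, a lower call in TPM that lay within 2-fold in CPM (log2 ratio -0.93).

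Of the FGF ligands and receptors, 6 of 16 in use were higher and 2 lower. Fgf3 and Fgf10 were at 0.634 and 30.8 TPM and at 0.214 and 7.54 TPM, Fgf5, the epiblast ligand, was at 176 and 253 TPM, and the receptor Fgfr1 at 25.3 and 33.7 TPM. Of the 16 genes that read FGF and ERK activity, 13 lay within 2-fold. The higher ones were Egr1 (4.82 and 15.0 TPM), Dusp5 (6.28 and 18.5 TPM) and Etv4 (11.1 and 25.6 TPM), whereas Etv5, the most abundant, was at 211 and 111 TPM and Spry1 at 65.3 and 41.2 TPM. Notch genes were higher in 11 of 22 in use and lower in none. Its ligands Dll1 and Dll3 were at 0.973 and 19.8 TPM and at 10.7 and 81.4 TPM, and Lfng, which tunes Notch in the somite clock, was at 1.29 and 7.05 TPM. The target Hes1 was at 47.5 and 128 TPM, and the receptor Notch3 at 5.70 and 4.68 TPM. Hedgehog genes were higher in 4 of 12 in use and lower in none. Gas1, a co-receptor, was at 6.96 and 57.8 TPM, Shh had 0 and 10 counts, and the targets Gli1 and Ptch1 were at 0.806 and 0.41 TPM and at 6.47 and 4.01 TPM.

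Of 22 genes of the epithelial to mesenchymal transition, 10 were higher and 1 was lower. Cdh2 (N-cadherin) was at 2.67 TPM on day 3 and 73.7 TPM on day 4, while Cdh1 (E-cadherin) was at 175 and 149.6 TPM and Epcam, another epithelial adhesion protein, at 315 and 252 TPM. The mesenchymal cadherin was 27.6-fold higher and the epithelial one lay within 2-fold. Snai1, a repressor of Cdh1, was at 1.65 and 16.4 TPM, and its relative Snai2 at 0.333 and 0.347 TPM. Vim, the intermediate filament of mesenchyme, was at 13.6 and 58.2 TPM, Fn1 (fibronectin) at 23.6 and 84.3 TPM and Mmp14, a membrane protease, at 14.5 and 45.4 TPM. Receptors and ligands of cell migration were higher in 15 of 27 and lower in 2. Aplnr, the apelin receptor of nascent mesoderm, was at 0.394 TPM on day 3 and 64.9 TPM on day 4, its ligand Apln at 7.201 and 21.9 TPM and its other ligand Apela at 51.3 and 39.9 TPM. Cxcr4 and its ligand Cxcl12 had opposite directions, at 0.091 and 9.02 TPM for the receptor and 15.0 and 2.64 TPM for the ligand (log2 ratio -2.50, 95% counting interval -2.74 to -2.28). S1pr5, a sphingosine-1-phosphate receptor, had 0 and 77 counts, whereas S1pr2, the most abundant of that family, was at 9.89 and 8.28 TPM.

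Of 29 matrix genes in use, 14 were higher and 2 lower. Col4a1 and Col4a2, the basement membrane collagens, were at 5.28 and 13.7 TPM and at 1.75 and 6.65 TPM. Col18a1 was lower, at 125 TPM on day 3 and 54.8 TPM on day 4 (log2 ratio -1.19, 95% counting interval -1.23 to -1.15). The summed level of the list was near equal on both days (453 and 472 TPM), and the abundant Sparc (133 and 158 TPM) and Nid2 (97.2 and 73.0 TPM) were within 2-fold. Col1a1, the fibroblast collagen, was higher in TPM (0.331 and 1.33 TPM) and within 2-fold in CPM (log2 ratio 0.30), and 3 counts on a 363-base retained-intron transcript made up 70.2% of its day 4 TPM. Of 20 claudin, keratin and tight junction genes, 4 were higher, 2 lower and 14 within 2-fold, with a median log2 ratio of -0.25. The higher ones were keratins of simple epithelia: Krt8 was at 126 TPM on day 3 and 717 TPM on day 4, Krt18 at 216 and 552 TPM, Krt19 at 18.8 and 94.0 TPM and Krt7 at 1.44 and 3.90 TPM. Among the claudins, which seal epithelia, Cldn7 was at 158 and 138 TPM and Cldn3 at 62.9 and 35.2 TPM, and the lower members were Cldn5 (3.56 and 1.67 TPM) and Cldn1 (0.306 and 0.025 TPM on 24 and 2 counts). Of 17 clustered protocadherins in use, 8 were higher and 2 lower, and the most abundant were Pcdhgc3 at 3.67 and 13.3 TPM and Pcdhgc4 at 7.75 and 6.11 TPM.

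Naive pluripotency genes lay within 2-fold in 21 of 22 members, with none higher. Nanog was at 87.9 and 78.9 TPM and Zfp42 (Rex1) at 119.8 and 78.2 TPM. Klf4 was at 3.53 and 3.33 TPM and Esrrb at 6.602 and 4.26 TPM. On 726 and 362 counts, Esrrb was within 2-fold in TPM and past it, on the lower side, in CPM. Klf4 and Esrrb, which ES cells lose on exit from the naive state, were low on both days. Tet2, a dioxygenase that oxidizes methylated cytosine, was the single lower member, at 3.43 and 0.816 TPM on 435 and 161 counts. Its log2 ratio was -2.07 in TPM and -1.495 in CPM, and 32.6% of its day 3 TPM lay on a 423-base transcript with 5.02 counts. Of 23 core and general pluripotency genes, 4 were lower, 1 was higher and the median log2 ratio was -0.47. Pou5f1 (Oct4) was at 949 TPM on day 3 and 628 TPM on day 4 and Sox2 at 102 and 51.2 TPM, just inside the threshold in TPM and past it in CPM (log2 ratio -1.02) and with TMM or DESeq2 factors (-1.05 for each). The lower members were Utf1, L1td1, Dppa2 and Dppa4. Utf1, a chromatin factor of ES cells and epiblast, was at 1266 TPM on day 3 and 362 TPM on day 4 (log2 ratio -1.81, 95% counting interval -1.84 to -1.78). L1td1, an RNA-binding protein of ES cells, was at 114 and 38.3 TPM, and Dppa2 and Dppa4, which act as a pair, were at 27.6 and 9.74 TPM and at 85.5 and 41.6 TPM. Dppa5a was the most abundant of the list on both days, at 6353 and 3735 TPM.

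Of 24 formative and primed epiblast genes, 4 were higher, 4 lower and 16 within 2-fold. That is 16.7% each way, against 12.3% higher and 8.89% lower over all genes in use. The largest ratio among the 4 higher genes was that of Cer1, which is also on the definitive endoderm list. Otx2, which drives the passage from naive to epiblast state, was at 160.2 and 145 TPM and Fgf5 at 176 and 253 TPM. Pou3f1 (Oct6), a POU factor of epiblast and neural plate, was lower at 97.2 TPM on day 3 and 20.7 TPM on day 4 (log2 ratio -2.23, 95% counting interval -2.30 to -2.16). Sox3, the Sox2 relative kept in neural plate, was at 9.72 and 2.04 TPM, Foxd3 at 12.1 and 5.16 TPM and the kinase Pim2 at 927 and 407 TPM. The de novo DNA methyltransferases lay together just inside 2-fold, with log2 ratios of -0.90 for Dnmt3a, -0.94 for Dnmt3b and -0.79 for Dnmt3l. Dnmt3b alone went from 736 to 383 TPM. Tet1, the partner of Tet2 in oxidizing methylated cytosine, was lower at 31.7 and 14.1 TPM, whereas Tet3 was at 3.59 and 3.93 TPM and the maintenance enzyme Dnmt1 at 53.5 and 55.1 TPM.

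**Figure D4:**
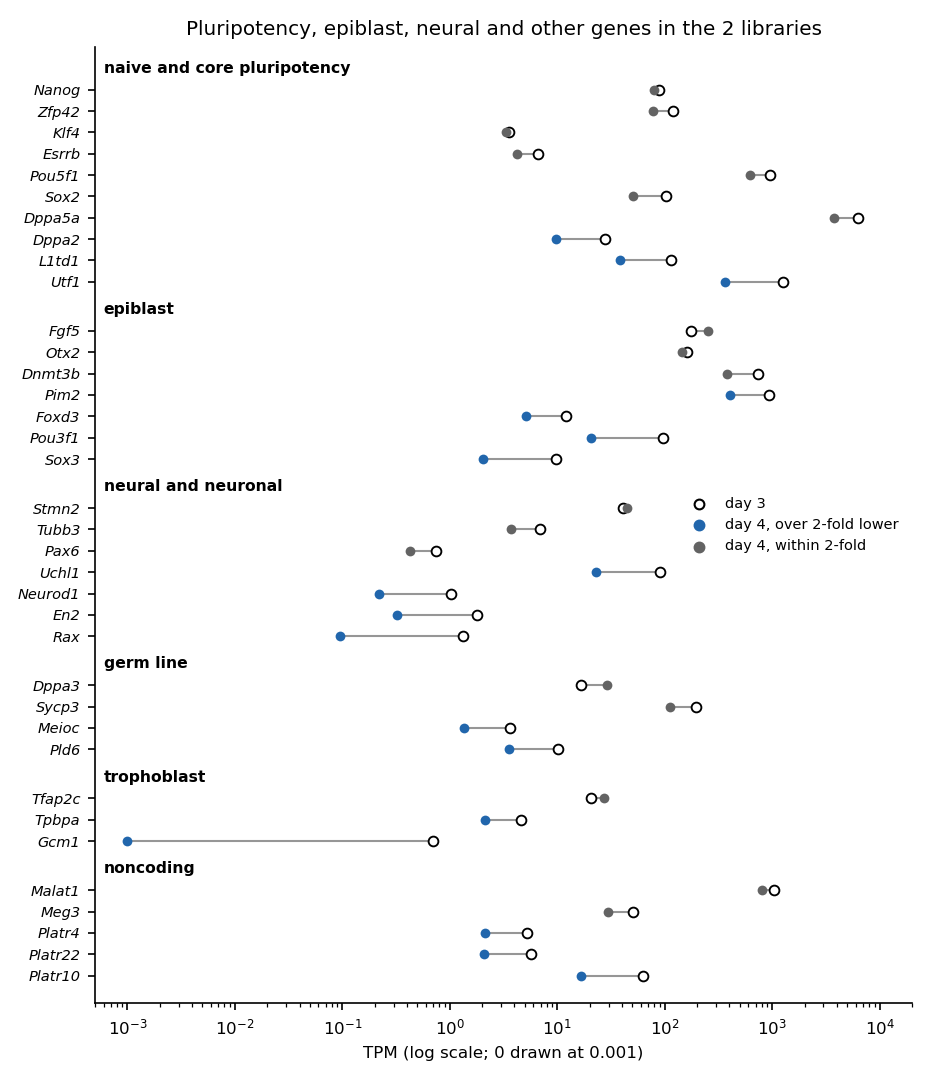
TPM (x axis, log scale, 0 drawn at 0.001) of pluripotency, epiblast, neural, germ line, trophoblast and noncoding genes in the day 3 library (open circles) and the day 4 library (filled circles, blue where over 2-fold lower and grey where within 2-fold). Nanog, Klf4, Otx2 and Stmn2 nearly coincide on both days, whereas Utf1, Pou3f1, Sox3, Uchl1, Rax and Platr10 lie to the left on day 4.

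Neural plate genes lay on both sides, with 8 higher, 5 lower and 11 within 2-fold of 24 in use, and 10 more, among them Sox1, Pou3f2 and Zic1, were under the filter. The lower ones were Pou3f1, Sox3, En2 (1.79 and 0.324 TPM), Rax (1.34 and 0.096 TPM) and Six6 (11 and 0 counts). The higher ones included Irx3 (1.79 and 7.87 TPM) and Irx5 (0.594 and 5.54 TPM), Six3 (0.101 and 1.78 TPM) and Emx2 (0 and 105 counts), homeobox genes that other germ layers use as well. Pax6, a homeobox gene of neural plate and eye, was at 0.738 and 0.43 TPM. Neuronal genes had the lowest median of the lists with at least 10 members in use, a log2 ratio of -0.68, with 6 of 17 lower and 2 higher, and 10 more under the filter. Uchl1, a neuronal ubiquitin hydrolase, was at 89.5 TPM on day 3 and 23.1 TPM on day 4 (log2 ratio -1.96, 95% counting interval -2.09 to -1.83), Gap43, a growth cone protein, at 12.1 and 3.97 TPM and Snap25, a synaptic fusion protein, at 2.26 and 0.378 TPM. Neurod1, a neuronal basic helix-loop-helix factor, was at 1.03 and 0.22 TPM on 64 and 14 counts. Stmn2 and Nefl lay within 2-fold, at 40.7 and 44.9 TPM and at 15.4 and 15.987 TPM. Of the 2 higher members, Dcx, a neuron marker, was at 0.059 and 0.342 TPM on 6 and 20 counts.

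Other cell types that an EB could hold were checked by their markers. Of visceral and primitive endoderm genes 15 of 24 in use were higher and 3 lower, and 11 of the higher ones had at least 50 counts in 1 library. Several of these are shared with definitive endoderm or mesoderm (Sox17, Foxa2, Gata4, Gata6 and Pdgfra). The visceral endoderm markers were low on both days. Afp was at 0.038 and 0.295 TPM, Ttr at 0.423 and 0.375 TPM and Apoa1 at 0.261 and 0.676 TPM. Amn was at 0.806 and 1.955 TPM on 34 and 72 counts. By ratio Afp, Apoa1 and Amn were called higher and Ttr lay within 2-fold. Apoe, a lipoprotein that many cells make, was at 1948 and 1471 TPM. The part of visceral endoderm in the endoderm gains was not tested. Of 17 trophoblast genes in use, 7 were higher and 3 lower. The higher ones were Hand1, Cdx2 and Eomes, which are also on the streak or mesoderm lists, and Gata3 (0.46 and 1.51 TPM), Rhox6 (1.16 and 3.48 TPM), Krt7 (1.44 and 3.90 TPM) and Tead4 (1.21 and 2.45 TPM). The marker Gcm1 went from 39 counts to 0, while Elf5 was under the filter. Tpbpa was at 4.59 and 2.13 TPM on 122 and 67 counts, a lower call in TPM that lay within 2-fold in CPM. Of 18 germ cell genes, 3 were higher and none lower, with Dppa3 (Stella) at 16.5 and 28.8 TPM and Nanos3 on 8 and 21 counts. Of 30 meiosis and piRNA genes in use, 7 were lower and 2 higher, with a median log2 ratio of -0.53. Sycp3, a chromosome axis protein, was at 193 and 111 TPM, Meioc, a meiotic RNA regulator, at 3.64 and 1.35 TPM and Pld6, a piRNA nuclease, at 10.1 and 3.55 TPM. Of the markers checked for neurons, blood and trophoblast, Tubb3 was at 6.93 and 3.69 TPM. Neurod1, Dcx, Gata1, Hbb-bh1, Gcm1 and Tpbpa were each at or below 4.59 TPM on both days.

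Of 15 neural crest and placode genes in use, 9 were higher and 1 was lower, with Twist1, a mesenchymal factor, at 2.96 and 10.6 TPM and Sox9, a factor of crest and cartilage, at 1.35 and 4.25 TPM, while Sox10 had 0 and 10 counts. Of 11 surface ectoderm genes in use, 5 were higher and none was lower, and Grhl3, an epidermal regulator, was at 5.46 and 12.6 TPM. Extraembryonic and amnion mesoderm genes were higher in 8 of 12 in use, including Pmp22, a membrane protein, at 2.12 and 15.2 TPM, and Tbx4, a factor of allantois and hindlimb, was lower at 1.46 and 0.566 TPM. Intermediate mesoderm genes were higher in 5 of 7 in use (Lhx1, Emx2, Six2, Eya1 and Sall1) and lower in 2. Six2, a factor of nephron progenitors, was at 0.115 and 17.2 TPM, whereas Pax8, needed for the nephric lineage, was at 0.89 and 0.109 TPM and Wt1 was also lower.

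Housekeeping lists held few calls. All 80 cytosolic ribosomal protein genes lay within 2-fold, and the extremes were Rps2 (log2 ratio 0.15) and Rps27l (-0.24). The 36 nuclear respiratory chain genes, 13 mitochondrial genome genes and 29 ribosome biogenesis genes were likewise within 2-fold. Of 35 cell cycle genes 33 were within 2-fold, and the exceptions were Ccnd2, a cyclin of the G1 phase, at 13.2 and 36.8 TPM and Cdkn1c (p57), an imprinted CDK inhibitor, at 17.3 and 39.5 TPM. Replication-dependent histones were within 2-fold in 51 of 55 in use. All 33 sterol and fatty acid synthesis genes were within 2-fold, and the median log2 ratio was -0.43, against 0.05 over all genes. Sqle, an early enzyme of the sterol branch, was at 156 and 97.9 TPM, Fasn, the fatty acid synthase, at 57.5 and 34.3 TPM and Fdps, a mevalonate pathway enzyme, at 414 and 286 TPM. Of 43 sphingolipid genes in use 35 were within 2-fold, including Sptlc2 (55.5 and 67.8 TPM), Ugcg (18.9 and 23.4 TPM) and Asah1 (64.2 and 65.5 TPM), which act in the first step of the pathway, in glucosylceramide synthesis and in ceramide breakdown. The 5 higher members (11.6%) included Sphk1, which makes sphingosine-1-phosphate, at 0 and 0.263 TPM, and Cers3, a ceramide synthase, at 0.023 and 0.347 TPM. Another 3 members (6.98%) were lower. These shares were near the 12.3% higher and 8.89% lower over all genes in use.

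Among 39 glycolysis and hypoxia genes, 36 were within 2-fold. Slc16a1 (MCT1), a lactate carrier, was higher at 98.6 TPM on day 3 and 316 TPM on day 4, 3.20-fold (95% counting interval 3.13 to 3.27), and Pdk1, which holds pyruvate out of the mitochondrion, was lower at 172 and 80.2 TPM. Ldha, lactate dehydrogenase, had the largest gain in TPM of any protein-coding gene, from 5271 to 6963 TPM, a ratio of only 1.32. Slc2a1 and Slc2a3, glucose carriers, were at 937 and 675 TPM and at 414 and 491 TPM. Slc7a3, a cationic amino acid carrier, was the lower member of the amino acid response list, in which 29 of 33 genes were within 2-fold. Of 29 p53 target and apoptosis genes in use, 26 were within 2-fold, including Cdkn1a (p21) at 103 and 121 TPM and Mdm2 at 73.0 and 55.8 TPM, and Hrk, a BH3-only gene, was lower at 0.725 and 0.258 TPM. Of 20 immediate early genes, 17 were within 2-fold and 3 higher, among them Egr3 with 0 and 61 counts.

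Ranked by ratio among protein-coding genes with at least 10 TPM in the higher library, the 15 largest gains held 4 genes of no list. Samd3 and Klhl6 had no count on day 3 and 657 and 934 on day 4, at least 209.9-fold and 298-fold higher. Sprr2a2, of a family of epidermal envelope proteins, was at 0.153 and 58.1 TPM. Its overlapping and near-identical copies Sprr2a1 and Sprr2a3 went from 0 to 153 and 107 counts, so the split between the copies is uncertain. Defa30, a defensin of a family of near-identical copies, was at 0.261 and 16.9 TPM on 1 and 66 counts, 64.6-fold (95% counting interval 11.2 to 2591). Among the 15 largest losses, Myb, a factor of blood progenitors and proliferating cells, was at 12.3 TPM on day 3 and 1.88 TPM on day 4 (log2 ratio -2.71, 95% counting interval -2.95 to -2.48), Enpp2 (autotaxin), which makes lysophosphatidic acid, was at 46.3 and 8.29 TPM, and Camk2b, a calcium-dependent kinase, at 19.9 and 4.71 TPM. Myo10, the motor of filopodia, was at 142 and 37.1 TPM, and Abcc4, an export pump, at 32.9 and 9.71 TPM. The ratios were smaller on this side: Myb led the losses, and Defa30, the 15th gain, had a log2 ratio of 6.01. Zfp950 and B230307C23Rik, 2 further losses, each had over 50% of their day 3 TPM on a 192-base transcript. Without transcripts under 300 bases their log2 ratios went from -1.73 to -0.60 and from -1.72 to -0.62.

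By absolute difference, abundant genes dominated. After Ldha, gains included Actb (2429.6 and 3028 TPM), Krt8, S100a10, an annexin partner (208 and 742 TPM), Emb, a chaperone of lactate carriers (234 and 626 TPM), and Upp1, uridine phosphorylase (486 and 836 TPM). Losses included Dppa5a, Mt1, a metallothionein (2341 and 1371 TPM), Utf1, Mkrn1, a ubiquitin ligase (1061 and 435 TPM), and Hsp90aa1, a chaperone (2550.1 and 2006 TPM). Of the 10 largest gains and the 10 largest losses in TPM, 11 genes lay within 2-fold.

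Imprinted genes, expressed from 1 parental copy, were higher in 13 of 40 in use and lower in 2. Mest was at 27.6 and 167 TPM, Peg3 at 5.36 and 45.4 TPM, Asb4 at 0.524 and 13.6 TPM, Grb10 at 15.2 and 46.3 TPM and Igf2, the growth factor, at 2.52 and 14.03 TPM. H19, the noncoding neighbour of Igf2, was at 24.2 and 17.9 TPM, so the neighbours lay on opposite sides of equality. Meg3 and Snrpn were within 2-fold, at 50.9 and 29.4 TPM and at 442 and 249.9 TPM, and Magel2 was lower at 4.77 and 1.90 TPM.

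Noncoding genes differed in both directions. Evx1os, which overlaps Evx1 on the other strand, was at 0.3 and 10.1 TPM on 25 and 762 counts, and Lhx1os, which starts next to Lhx1, was at 0.218 and 19.8 TPM on 2 and 185 counts. The library kit does not mark strand, so reads where Evx1 and Evx1os overlap cannot be told apart. Gm45889, a lincRNA, went from 0 to 298 counts. Krt8-ps, a processed pseudogene, was at 2.40 and 15.1 TPM while Krt8 itself was 5.71-fold higher, and reads shared between them cannot be told apart. Of 33 long noncoding RNAs of early development in use, 9 were lower and 3 higher. Platr10, a transcript associated with pluripotency, was at 63.0 TPM on day 3 and 16.8 TPM on day 4 (log2 ratio -1.91, 95% counting interval -2.09 to -1.73), and Platr4 and Platr22 of the same series were at 5.28 and 2.12 TPM and at 5.71 and 2.06 TPM. Malat1 was at 1041 and 801 TPM.

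Calls were concentrated in genes of low level. Of genes with 0.1 to 1 TPM on day 3, 26.1% were higher and 24.8% lower. At 10 to 100 TPM the shares were 1.50% and 1.94%, and of the 161 most abundant genes on day 3 none was higher and 2 were lower. Genes below 0.1 TPM on day 3 came into use mainly through their day 4 counts. Among protein-coding genes with at least 10 TPM in 1 library, 271 of 7590 (3.57%) were higher and 109 (1.44%) lower. By annotation, genes of the extracellular region were higher in 28.3% and lower in 14.8% of 831, DNA-binding transcription factors in 18.0% and 10.3% of 594, and genes of somitogenesis in 36.2% and 6.38% of 47. G protein-coupled receptors were called about equally in both directions (30.1% and 28.3% of 173). Ion channels and lincRNAs were lower more often than higher, at 27.7% against 21.3% and 25.5% against 16.7%. Genes of the mitochondrion were rarely called, at 4.17% and 3.34% of 1558. These classes differ in level as well, and the part of level in their shares was not tested.

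**Figure D5:**
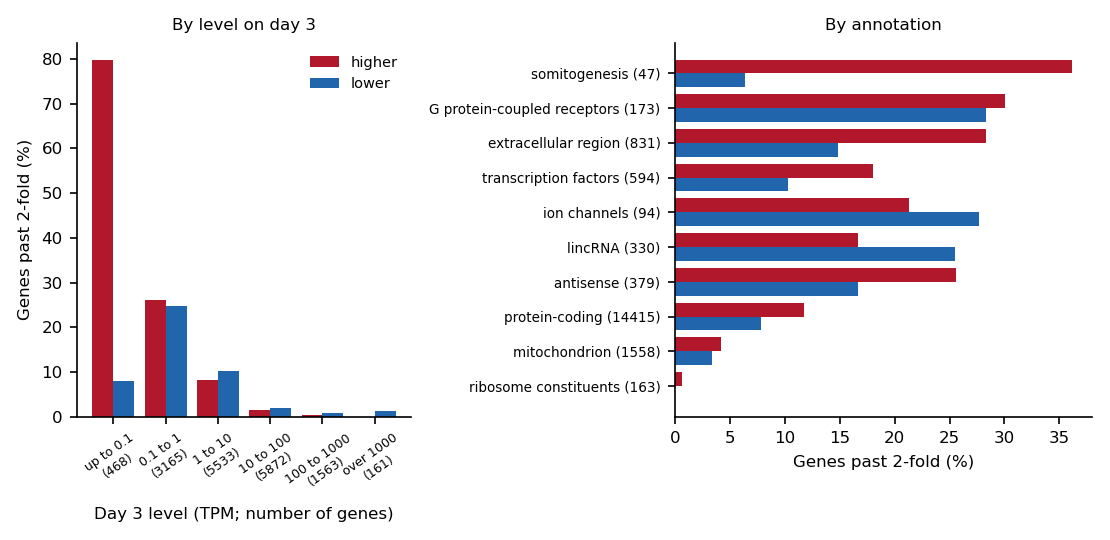
Genes more than 2-fold higher (red) or lower (blue) on day 4 as % of genes in use, by TPM on day 3 (left, genes with 0 TPM on day 3 left out) and by annotation (right), with the number of genes in parentheses. Both shares are above 20% at 0.1 to 1 TPM and under 2% in each bin from 10 TPM upwards, and somitogenesis genes show 36.2% gains and 6.38% losses, while ion channels and lincRNAs show more losses than gains.

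Position and sequence were described next. Protein-coding genes spanning over 200 kb were higher in 23.2% and lower in 16.3% of 772, against 9.56% and 6.64% at 10 to 50 kb. The nearest protein-coding neighbour was also higher for 15.8% of 1695 higher genes, against 10.2% of all 14410, and also lower for 11.7% of 1132 lower genes, against 6.90% of all. Mesp1 and Mesp2, 16939 bases apart by their start sites, are such a pair. Promoter windows were matched for 11321 of the genes in use, 11291 of them protein-coding. The median CpG ratio (observed over expected) was 0.614 in 1256 higher and 0.497 in 826 lower promoters, against 0.782 in 9209 promoters of genes within 2-fold. The share of windows with a ratio over 0.6 was 51.8% for higher and 39.2% for lower genes, against 70.3% over all. For higher genes with at least 10 TPM on day 4 it was 64.1%, with a median ratio of 0.690. For lower genes with at least 10 TPM on day 3 it was 46.5%, with a median of 0.556. Of 86 lower genes with at least 10 TPM on day 3, 11.6% carried the octamer core TTTGCAT, the letters read by POU factors such as Oct4, and of 217 higher genes with at least 10 TPM on day 4 it was 3.23%, against 3.38% of all promoters. Over all 826 lower and 1256 higher promoters, the octamer core was in 5.33% and 3.42% and the TCF/LEF site in 2.78% and 2.95%. In the smaller sets with at least 10 TPM, the TCF/LEF site was in 6.98% of lower and 3.69% of higher genes. Its variant, in the opposite order, was in 1.16% and 4.61% of these smaller sets. These sets are small and the shares are descriptions.

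The transcript table held estimated levels for each isoform. Of 9941 genes with at least 100 counts on both days and more than 1 transcript, 871 (8.76%) had a different most abundant transcript on day 4. In 117 of them its share moved by over 30 percentage points. Gng7, a G protein subunit, had all of its TPM on a 3362-base transcript on day 3 (155 counts) and on a 3382-base one on day 4 (196 counts), while its gene level was 1.57 and 1.93 TPM. Cers1, a ceramide synthase, had 100% on a 2728-base transcript on day 3 and 73.2% on a 2711-base one on day 4, at a gene level of 6.08 and 6.22 TPM. Nptxr, a neuronal pentraxin receptor, had 100% on a 5006-base transcript on day 3, and a 4948-base one had 77.6% of its day 4 TPM, at 2.41 and 1.42 TPM. The same was seen for Zfp438, Exd1, Zfp420 and 2310030G06Rik. In all of these the gene level was within 2-fold, and the isoforms that exchanged places in Gng7 and Cers1 differ by 20 and 17 bases in length. Estimates between such close isoforms rest on few distinguishing reads, and their error is not in the files. Short transcripts also weighed on gene TPM: Tcf25, chosen after its values were seen, was at 96.4 and 421 TPM with 7316 and 8605 counts, and transcripts under 300 bases held 309 TPM on day 4. In all, 22 higher and 15 lower calls were lost without transcripts under 300 bases.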

How the data were processed

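Per the labels and the methods of the study, RNA of EBs was amplified with the SMART-Seq v4 kit, which does not mark strand, made into Nextera XT libraries and sequenced on a NovaSeq 6000. The authors aligned and quantified reads with DRAGEN 3.6.3 against GRCm38 and GENCODE M25, as the submitters' processing notes list. The deposited tables give TPM (length-scaled shares of all transcripts) and estimated counts, which need not be whole, for 55487 genes and 142699 transcripts. The ratio is TPM on day 4 over TPM on day 3, with 0 set to 0.001 TPM for log2 values of genes without counts. Exact intervals came from counts rounded to whole numbers, at 95%, and folds against a library at 0 used 3 counts in that library. No test was possible with 1 library a side, and the C2 ceramide library was not used. The lists (55, with 1249 genes) and the members were chosen with earlier results of these data known.

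Named genes were the 15 largest and 15 smallest TPM ratios among protein-coding genes with at least 10 TPM in the higher library, the 3 most extreme members each way and the 2 most abundant of each list among those with at least 50 counts, cell type markers, the 5 largest and 5 smallest ratios among other genes with at least 100 counts, the 10 largest gains and losses in TPM, the 8 genes with the largest exchange of transcripts, and the 2 most extreme genes each way of each annotation class. Other members of a list are named beside its count and were chosen after their values were seen. Some of these genes are not reported here. Promoter windows are RefSeq sequences. Alternatives were other scalings, filters, pseudocounts and thresholds. Python 3.11.15, NumPy 2.4.6, pandas 2.3.3, SciPy 1.17.1, Matplotlib 3.10.9 and R 4.3.3 were used, with edgeR 4.0.16 and DESeq2 1.42.0 for scaling factors of rounded counts alone. Interval code was tested on simulated data.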

Additional observations from a re-analysis of the deposited data

How the results depend on the processing

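No named gene past 2-fold and no list median past a log2 ratio of 1 reversed under the alternatives run. Over all genes in use, 4 that were higher in TPM were over 2-fold lower in CPM, and 3 were the opposite. The 2110 higher and 1521 lower genes became 666 and 279 with 1 TPM added to both values, 4967 and 3997 with 1 count in 1 library as the filter, 820 and 421 with 100 counts, 1153 and 779 with 10 counts in both libraries, 3421 and 2550 at 1.5-fold, 1031 and 556 at 4-fold, and 870 and 450 where the whole counting interval had to lie past 2-fold. Each of these tightens or loosens the rule or the filter by construction. The median log2 ratio of 0.05 was 0.0436 with 1 TPM added, 0.0294 in CPM, 0.0033 with edgeR TMM factors, 0.0045 with DESeq2 size factors and 0.0469 with 10 counts in both libraries. Protein-coding genes alone gave 1695 and 1132, and 1903 and 1363 genes were called by both TPM and CPM, an alternative added after the data were seen, as was leaving out transcripts under 300 bases (2100 and 1511). Of 243 named genes past 2-fold, 234 kept their side in CPM, 233 with TMM or DESeq2 factors and 175 with 1 TPM added. Of 16 list medians past a log2 ratio of 1, 15 stayed past it in CPM and 5 with 1 TPM added. Hmcn1 and Sgms2 were among the named genes lost in CPM: Hmcn1 had a log2 ratio of 3.50 in TPM and 0.86 in CPM, and Sgms2 had -1.23 and -0.29, and the cause was not tested. No paired analysis was possible because each day has 1 library, and for the same reason no replicate could be left out. Depth limits low genes: a gene with 0 counts in 1 library is known only to lie below 3 counts there.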
